A study of Danio rerio with 12 samples.

Results

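The GFP+ cells of the zebrafish heart were compared between 72 and 48 hours post-fertilization (hpf), to see which genes the sorted atrioventricular canal (AVC) fraction gained and lost as it matured. The libraries used were the 6 that the labels give as EGFP-positive, 3 at each stage, out of 12 in the series, and the other 6 hold the GFP− cells of the same hearts. All libraries came from embryos of *sqet31Et*, an enhancer trap line in which a Tol2 transposon carries EGFP behind a basic promoter of *krt4*, a keratin gene. The insertion site of that transposon has not been mapped. Both stages carried the same transgene, and no drug or mutation separated them. Hearts were dissected out, pooled, dissociated with trypsin and sorted by FACS with gates set on wild-type cells, and the polyadenylated RNA of each fraction was sequenced. The reporter limits this fraction as a model. EGFP marks the AVC at both stages, but the study also saw it in the bulbus arteriosus (BA), the elastic outflow chamber of the fish heart, from 72 hpf, and at a low level in some other myocardium. A change between the stages within AVC cells and the entry of BA cells into the gate therefore cannot be told apart in these libraries. Likewise, fewer cells of a type and less RNA per cell cannot be told apart in bulk RNA. The EGFP transcript itself was not analysed here. The series text calls the replicates biological while the study also calls them technical, so the p-values measure the spread between these libraries, which may be technical.

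The AVC is the narrow ring between atrium and ventricle. Its myocardium, patterned by Bmp4 and Tbx2/Tbx3 factors, conducts slowly and delays the impulse, and signals from it induce the overlying endocardium to form the cushions that become the valves. Notch activity in the endocardium, Wnt signalling and endothelial-to-mesenchymal transition take part in cushion formation, and the cushions fill with hyaluronan, proteoglycans and collagens. Elastic fibres, built from elastin on a scaffold of fibrillins, fibulins and emilins and cross-linked by lysyl oxidases, are a feature of the outflow tract, where smooth muscle cells also form.

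The GFP+ libraries held 25554971 to 34163013 counts at 48 hpf and 25913598 to 62359004 counts at 72 hpf. In a principal component analysis of the 500 genes that varied most over the 6 libraries, the first component took 84.0% of their variance. It separated the stages. The share is of genes picked for varying, not of all genes. Of 27191 genes in the files, 21744 passed the filter on low counts and were tested with edgeR's quasi-likelihood test. Levels are given as CPM (reads of the gene relative to the library size, after TMM scaling), in the order of replicates 1, 2 and 3, and a change as the log2 fold change (log2FC) of 72 over 48 hpf ± its standard error, with the Benjamini-Hochberg adjusted p (padj) over all tested genes. A gene rose or fell where padj was below 0.05. At that threshold 4068 genes rose (18.7%) and 3932 fell (18.1%), together 36.8%, and these shares are the background for every count of list members. With an absolute log2FC above 1 in addition, 2780 genes were higher (12.8%) and 3018 lower (13.9%) at 72 hpf. The split depended on the scaling. With library totals in place of TMM, 1889 genes were higher and 4304 lower, and the median log2FC of all genes moved from -0.02 to -0.30. All values below are relative to the TMM centre, and a change smaller than 0.28 lies within that shift. Symbols in capitals are human names that the annotation gives to a zebrafish gene, and near-identical paralogs may share reads.

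**Figure D1:**
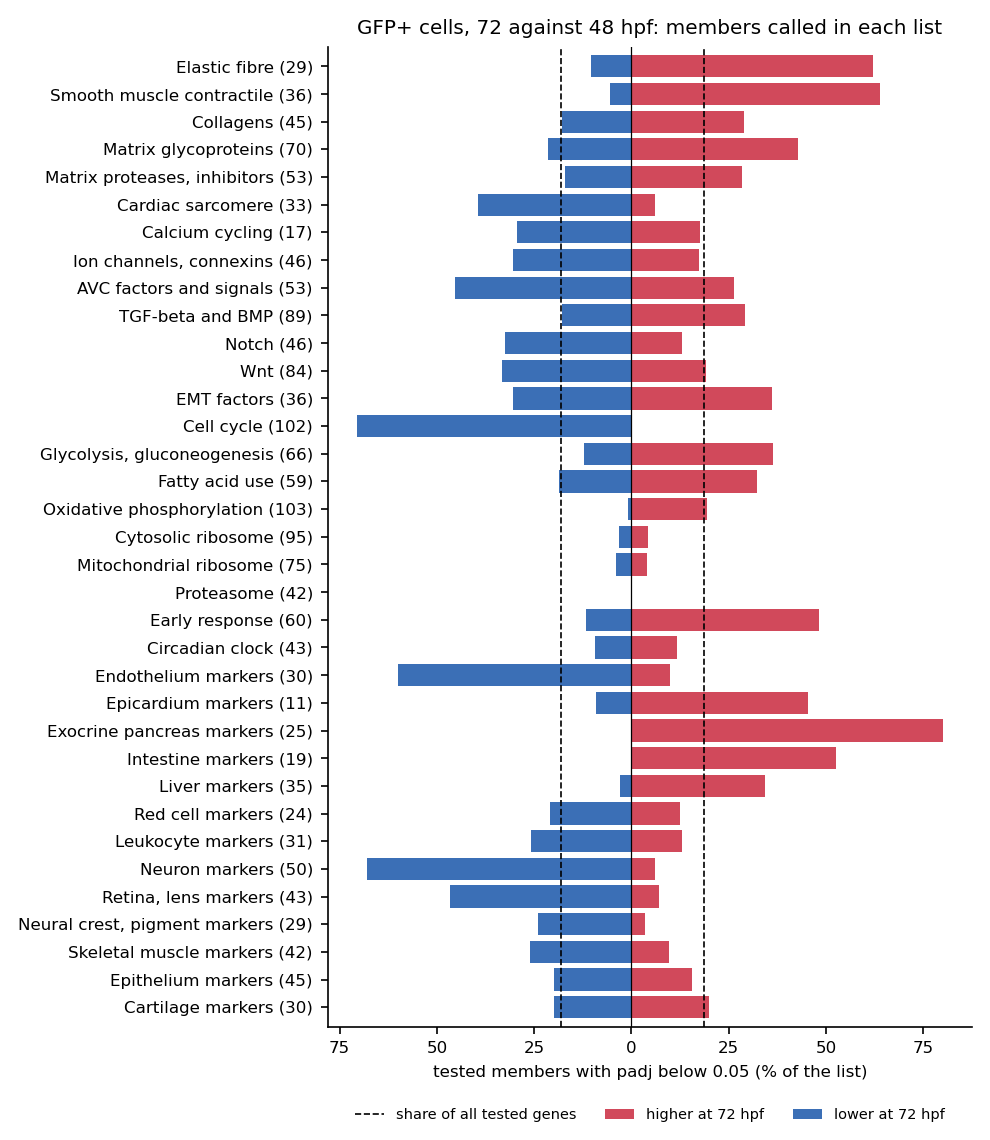
Percent of the tested members of each gene list that were higher (right) or lower (left) at 72 hpf than at 48 hpf in GFP+ cells (padj below 0.05, edgeR), with the shares over all 21744 tested genes as dashed lines. The smooth muscle list (23 of 36 higher) and the elastic fibre list (18 of 29) lie far to the right and the cell cycle list (72 of 102 lower) far to the left.

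Cardiac genes were detected at both stages. The myocardial light chain gene *myl7* (ENSDARG00000019096) was at 661, 731 and 1359 CPM at 48 hpf and 528, 785 and 442 CPM at 72 hpf, and cardiac troponin T, *tnnt2a*, was at 243, 323 and 395 CPM at 48 hpf and 256, 203 and 163.3 CPM at 72 hpf. The stages overlapped for both genes and neither passed the test (log2FC -0.65 ± 0.32, padj = 0.14 and log2FC -0.63 ± 0.24, padj = 0.068, respectively), although *tnnt2a* did with 1 library fewer (padj = 0.049 without replicate 1 of 48 hpf). The AVC repressor gene *tbx2b* was at 64.6, 71.9 and 56.7 CPM at 48 hpf and 65.3, 51.5 and 65.8 CPM at 72 hpf, with overlapping groups (log2FC -0.08 ± 0.19, padj = 0.75). *bmp4*, the ligand that patterns AVC myocardium, was at 83.7, 82.5 and 81.7 CPM at 48 hpf and 115, 118 and 122 CPM at 72 hpf (log2FC 0.52 ± 0.16, padj = 0.028). This call was lost when 1 library was left out (padj = 0.095, 0.061 and 0.095 without replicates 1, 2 and 3, respectively, of 48 hpf and 0.085 without replicate 2 of 72 hpf).

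Markers of other cell types that the dissection or gate could hold were also counted. Of the exocrine pancreas markers, 20 of 25 rose, and their summed level was 41.5 to 58.1 CPM at 48 hpf and 181 to 512 CPM at 72 hpf. The trypsin gene *prss59.1* had no count in any 48 hpf library. Liver markers summed to 1202 to 4182 and 3999.8 to 5208 CPM (12 of 35 rose), and intestine and endoderm markers to 270.0 to 463 and 643 to 1015 CPM (10 of 19 rose). The intestine rises and sums include *gata6*, which is also reported below with the AVC factors. It was at 84.9, 90.1 and 91.0 CPM at 48 hpf and 283, 202 and 176 CPM at 72 hpf. The erythroid sum was 254 to 308 CPM at 48 hpf and 2196 to 2675 CPM at 72 hpf, most of it from *rhag*, an ammonium channel gene of the red cell membrane (202, 124 and 134 CPM at 48 hpf and 2199.6, 2554 and 2112 CPM at 72 hpf), while 3 members rose and 5 fell. Among alternatives the rises were 7 without replicate 2 of 48 hpf, and the falls 3 with all 12 libraries fitted, 3 without replicate 2 of 48 hpf, 3 without replicate 3 of 48 hpf, 3 without replicate 1 of 72 hpf and 3 without replicate 2 of 72 hpf. Neuronal markers moved the other way, with 34 of 50 lower, 3 higher and sums of 1816 to 2339.7 CPM at 48 hpf and 762 to 927 CPM at 72 hpf. Of the retina and photoreceptor markers 20 of 43 fell, with sums of 771 to 1057 and 893 to 1104 CPM (with 1 library fewer the falls were 11 without replicate 1 of 72 hpf and 11 without replicate 3 of 72 hpf). The smaller shares were 4 rises and 8 falls among 31 leukocyte markers (5 with all 12 libraries fitted, 13 with total-count scaling and 4 without replicate 2 of 72 hpf for the falls), 1 and 7 among 29 neural crest and pigment markers (2 with DESeq2, 2 with the 10-count filter and 2 without replicate 3 of 48 hpf for the rises, and 11 with total-count scaling for the falls), and 4 and 11 among 42 skeletal muscle markers (2 with total-count scaling, 2 without replicate 1 of 48 hpf, 2 without replicate 2 of 48 hpf and 2 without replicate 1 of 72 hpf for the rises). Epithelial markers had 7 rises and 9 falls among 45 (2 with all 12 libraries fitted and 14 without replicate 2 of 48 hpf for the falls), and cartilage markers 6 and 6 among 30 (3 without replicate 2 of 72 hpf for the falls). For erythroid, leukocyte, epithelial and cartilage markers the rises were 12.5%, 12.9%, 15.6% and 20.0% of tested members. Their falls were 20.8%, 25.8%, 20.0% and 20.0%, respectively. Against 18.7% and 18.1% of all genes, and the leukocyte falls apart, these counts lay near or below the background. For neural crest and skeletal muscle markers the rises were 3.4% and 9.5%, below it, and the falls 24.1% and 26.2%, above it. The part of such cells in the results that follow was not tested.

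**Figure D2:**
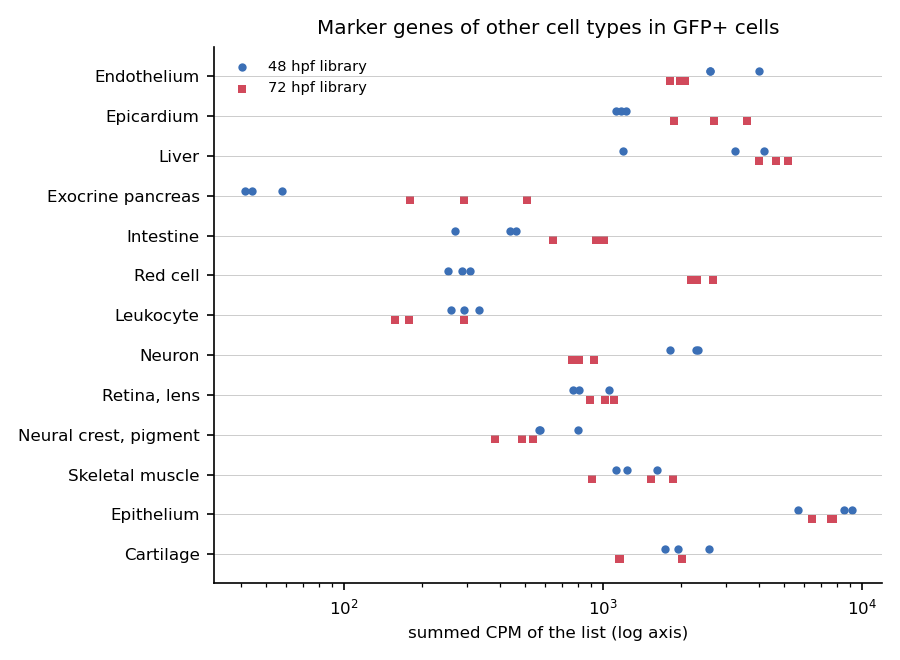
Summed CPM (log axis) of the marker lists of other cell types in each GFP+ library, 3 at 48 hpf and 3 at 72 hpf. The pancreas and erythroid sums are higher in every 72 hpf library (181 to 512 and 2196 to 2675 CPM) and the neuronal sum is lower (762 to 927 CPM). Most of the erythroid sum at 72 hpf is from *rhag* alone, while 3 erythroid members rose and 5 fell.

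The leading rise, by the fixed rule for named genes, was *fbp2* (ENSDARG00000012366), a muscle fructose-1,6-bisphosphatase of gluconeogenesis, at 0.532, 0.110 and 0.289 CPM at 48 hpf and 1601, 468 and 2096 CPM at 72 hpf (log2FC 12.10 ± 0.82, padj = 4.6e-05). It was nearly silent in every 48 hpf library and among the abundant transcripts of every 72 hpf library, though replicate 2 held less than the other two. The calcium channel gene *trpv6* went from 0, 0 and 1 counts to 222, 1890 and 559 counts. The ratio of its levels was 2066, with a counting interval of 370 to 81627. *CR925728.1* went from 0, 3 and 0 counts to 94.9, 153 and 97.2 CPM, a ratio of 4024 (1377 to 19513). The other leading rises outside the elastic fibre genes were the cytochrome P450 gene *cyp2ad2* (log2FC 9.45, padj = 3.4e-05), the trypsin gene *prss59.2* (log2FC 8.75, padj = 0.00019), the TNF family ligand gene *tnfsf12* (log2FC 7.37, padj = 2.2e-05) and *si:dkey-57k2.6* (log2FC 7.10, padj = 0.00017). Of these, *cyp2ad2* is also on the liver list and *prss59.2* on the pancreas list.

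The 10 leading falls held genes of hormones, transcription factors, a transporter and secreted Wnt regulators, among others. The somatostatin genes *sst2* (148, 111 and 423 CPM at 48 hpf and 4.0, 2.25 and 0.604 CPM at 72 hpf) and *sst1.2* (73.8, 72.5 and 282 CPM at 48 hpf and 11.8, 1.76 and 5.43 CPM at 72 hpf) encode peptide hormones. *SIX3* (ENSDARG00000054879) and *ZIC1*, transcription factor genes of the anterior neural plate, fell (log2FC -5.90 ± 0.68, padj = 0.00044 and log2FC -5.84 ± 0.63, padj = 0.00033), as did the glutamate transporter gene *SLC1A2* (log2FC -5.59, padj = 0.0005) and *FABP7*, a brain fatty acid binding protein gene (124, 78.9 and 164 CPM at 48 hpf and 6.80, 6.06 and 3.58 CPM at 72 hpf). The Wnt-inactivating *notum1a* was at 21.2, 47.5 and 10.8 CPM at 48 hpf and 0.95, 0.642 and 1.81 CPM at 72 hpf. The remaining leading falls were *ifi30b* (log2FC -5.22, padj = 0.0014), *si:dkey-163f14.6* (log2FC -4.86, padj = 0.00026) and the Wnt antagonist gene *sfrp2l* (log2FC -4.47, padj = 0.0006). For all of them every 72 hpf library lay below every 48 hpf library, as the rule required. The neuronal marker sum was also lower at 72 hpf, and whether these falls are related to it was not tested.

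Elastic fibre genes rose more often than they fell, with 18 of 29 tested members higher and 3 lower (median log2FC 1.76). Elastin b, *elnb* (ENSDARG00000069017), the elastin paralog tied to the BA in zebrafish, had 2, 2 and 0 counts at 48 hpf and stood at 136, 153 and 162 CPM at 72 hpf. The ratio of its levels was 3754, with a counting interval of 1466 to 13779. *loxa* (ENSDARG00000003259), lysyl oxidase, which cross-links elastin and collagen, was at 4.05, 5.26 and 5.93 CPM at 48 hpf and 4100.5, 4617 and 2784 CPM at 72 hpf (log2FC 9.56 ± 0.35, padj = 4.5e-06). Fibulin-5, *fbln5*, which guides elastin onto microfibrils, was at 46.1, 53.8 and 34.5 CPM at 48 hpf and 6005, 5635 and 4285 CPM at 72 hpf (log2FC 6.89 ± 0.30, padj = 7.8e-06). In all 3, every 72 hpf library lay above every 48 hpf library, which held for 25.7% of all tested genes. For *elnb* and *loxa*, which are among the leading rises, the rule for named genes required this.

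Other assembly genes also changed. The serine protease genes *htra1a* and *htra1b* were at 3.86, 3.23 and 3.40 CPM at 48 hpf and 597, 623 and 356 CPM at 72 hpf, and at 4.76, 3.84 and 4.12 CPM at 48 hpf and 87.8, 90.9 and 63.2 CPM at 72 hpf (log2FC 7.23 ± 0.31, padj = 7.8e-06 and log2FC 4.25 ± 0.23, padj = 2.2e-05, respectively). The microfibril genes *mfap5* (log2FC 4.67, padj = 4.6e-05) and *mfap2* (log2FC 1.64, padj = 0.00029), the fibulin-4 gene *efemp2a* (log2FC 3.80, padj = 6.3e-05) and the latent TGF-β binding protein gene *ltbp3* (log2FC 3.74, padj = 7.1e-05) rose. *mfap2* was already at 520.3, 449 and 469 CPM at 48 hpf. Of the lysyl oxidase-like enzymes, *loxl1* (log2FC 2.72, padj = 0.0028), *loxl5b* (log2FC 2.49, padj = 0.00064), *loxl2b* (log2FC 2.31, padj = 0.00012) and *loxl3b* (log2FC 0.98, padj = 0.0069) rose, whereas *loxl2a* (log2FC -0.24, padj = 0.45) did not pass. The emilin genes split. *emilin1a* (log2FC 2.19, padj = 0.001) and *emilin1b* (log2FC 1.76, padj = 0.0029) rose, while *emilin3a* fell from 366, 548 and 85.5 to 17.1, 26.5 and 48.3 CPM (log2FC -3.45 ± 0.64, padj = 0.0036) and *emilin2b* (log2FC -1.72, padj = 0.0037) fell.

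Among the fibulins, *fbln2* (log2FC 1.78, padj = 0.00035) and *fbln7* (log2FC 2.17, padj = 0.0039) rose and *FBLN1* (log2FC -2.22, padj = 0.011) fell. *EFEMP2* passed with all 6 libraries (log2FC 1.14, padj = 0.032) but not in every set of 5 (padj = 0.094 and 0.09 without replicates 1 and 3, respectively, of 48 hpf and 0.08 and 0.11 without replicates 1 and 2, respectively, of 72 hpf). The fibrillin gene *fbn2b*, a scaffold of microfibrils, was at 109, 269.5 and 84.6 CPM at 48 hpf and 169, 190.3 and 469 CPM at 72 hpf and did not pass (log2FC 0.84 ± 0.50, padj = 0.21), although it did with 1 library fewer (padj = 0.037 without replicate 2 of 48 hpf). The same held for *LTBP1* (log2FC 0.83, padj = 0.058 with 6 libraries and padj = 0.0074 without replicate 2 of 48 hpf), *EMILIN2* (log2FC -1.04, padj = 0.13 with 6 libraries and padj = 0.003 without replicate 3 of 72 hpf) and the more abundant of the genes named *LOXL4* (log2FC 0.93, padj = 0.26 with 6 libraries and padj = 0.041 without replicate 1 of 48 hpf). The matrix Gla protein gene *mgp*, *FBN2* and the other *LOXL4* gene averaged under 3 CPM at both stages and did not pass (log2FC -1.53, -0.23 and -0.08). In the GFP− fraction the same list had a median log2FC of 1.60, with 16 members higher.

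**Figure D3:**
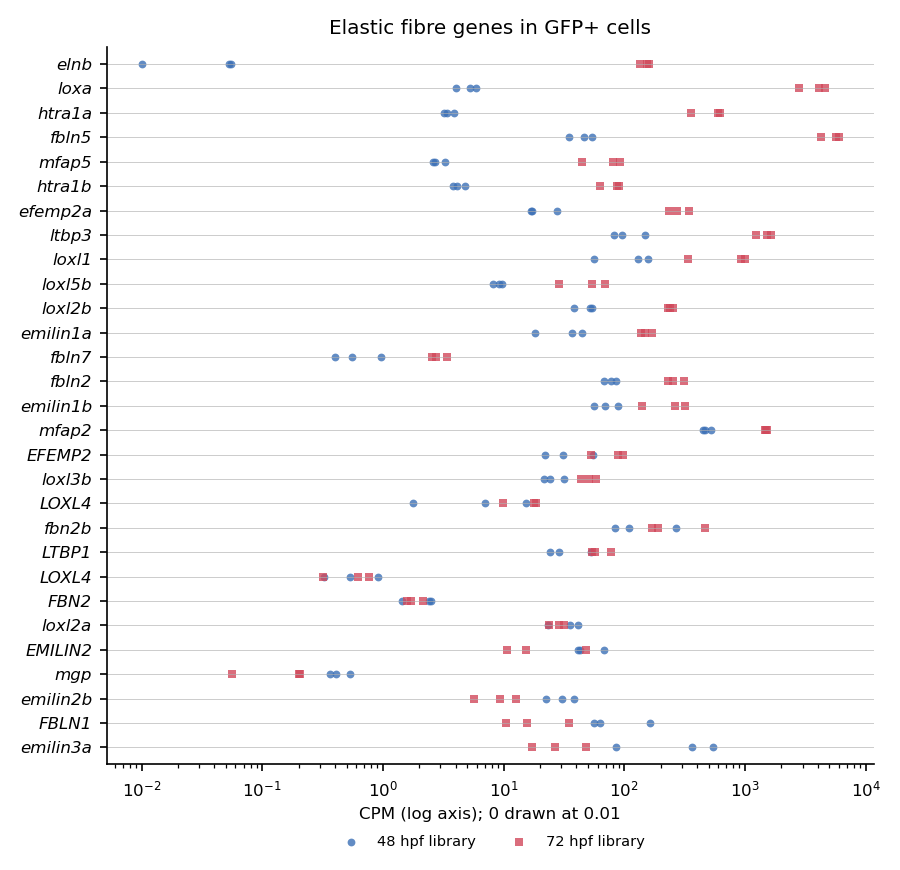
CPM (log axis) of elastic fibre genes in each GFP+ library at 48 and 72 hpf. *elnb*, *loxa*, *htra1a* and *fbln5* are separated by more than an order of magnitude between the stages, whereas *emilin3a* is lower at 72 hpf (17.1, 26.5 and 48.3 CPM).

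Genes of the smooth muscle contractile apparatus rose with 23 of 36 tested members higher and 2 lower (median log2FC 1.59). The smooth muscle actin gene *acta2* (ENSDARG00000045180) was at 40.6, 40.4 and 81.2 CPM at 48 hpf and 1232, 699 and 1264 CPM at 72 hpf (log2FC 4.3 ± 0.38, padj = 0.00014). Transgelin, *tagln*, an actin-binding protein of smooth muscle, was at 5.35, 1.95 and 3.73 CPM at 48 hpf and 241, 96.7 and 163.3 CPM at 72 hpf (log2FC 5.50 ± 0.47, padj = 0.00013). Smooth muscle myosin heavy chain, *myh11a*, was at 26.3, 8.96 and 9.55 CPM at 48 hpf and 297, 380.4 and 522 CPM at 72 hpf (log2FC 4.74 ± 0.47, padj = 0.00024). The levels of all 3 were low but not absent at 48 hpf, and every 72 hpf library was above every 48 hpf library, which held for 25.7% of all tested genes. The mural cell genes *rgs5a* (log2FC 5.59, padj = 4.3e-05), a regulator of G protein signalling, and *pdgfrb* (log2FC 2.14, padj = 0.00056), a PDGF receptor, rose, as did the caldesmon gene *cald1b* (log2FC 4.78, padj = 0.00046) and the light chain kinase genes *mylka* (log2FC 3.57, padj = 8e-05) and *mylkb* (log2FC 2.96, padj = 0.0027). The light chain gene *myl9b*, which is used in many cells besides smooth muscle, went from 628 ± 103 to 3198 ± 807 CPM (mean ± SD, n = 3 libraries; log2FC 2.35, padj = 0.00031). The falls were the desmin gene *desma* (41.3, 55.0 and 69.1 CPM at 48 hpf and 19.0, 14.8 and 9.94 CPM at 72 hpf; log2FC -1.91 ± 0.29, padj = 0.0013) and the more abundant of the genes named *KCNMA1*, a potassium channel (log2FC -2.03, padj = 0.00099). The other desmin gene, *desmb*, rose (log2FC 3.84 ± 0.60, padj = 0.0016). In GFP− cells *tagln* and *acta2* rose more (log2FC 12.11 and 9.40), a difference tested with the GFP− comparison.

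**Figure D4:**
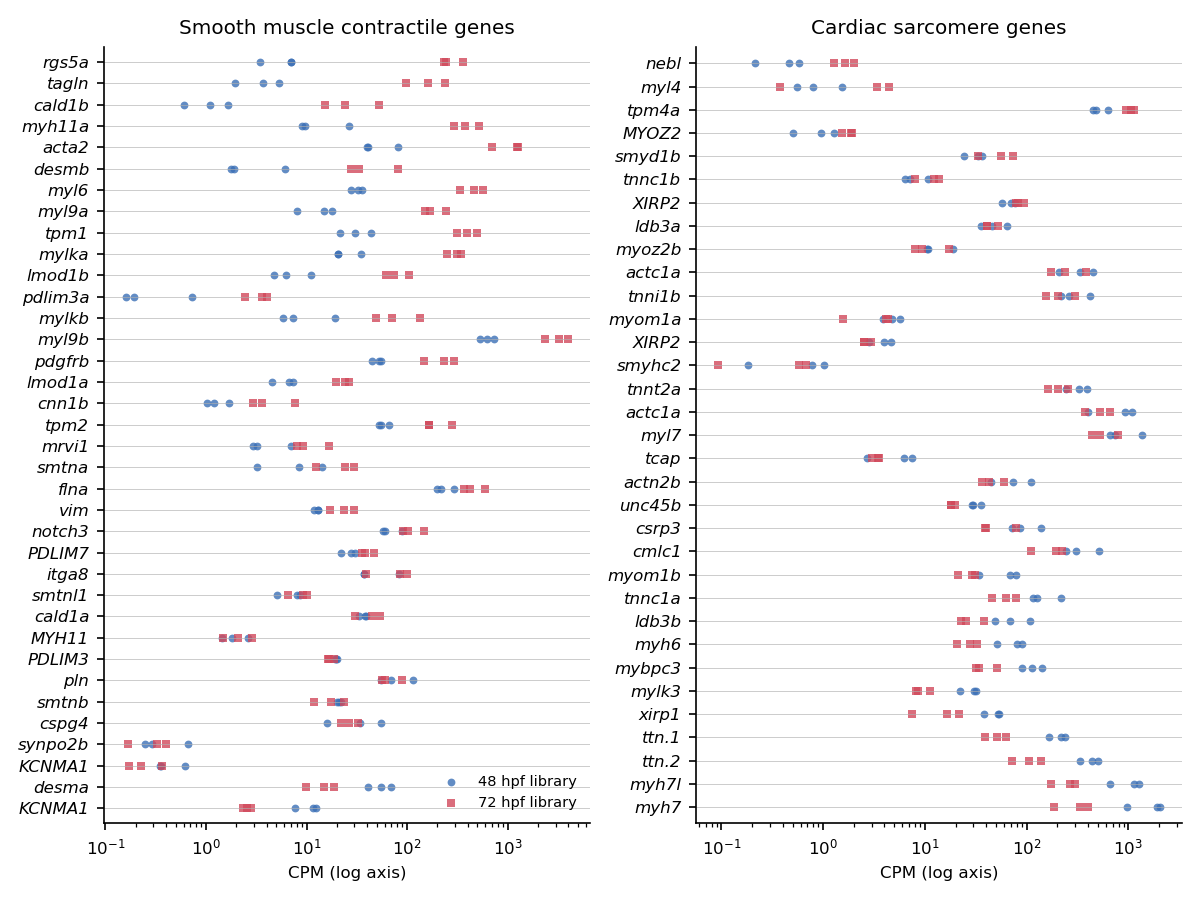
CPM (log axis) of smooth muscle and sarcomere genes in each GFP+ library at 48 and 72 hpf. The smooth muscle genes (*acta2*, 1232, 699 and 1264 CPM at 72 hpf) are higher and the sarcomere myosin and titin genes (*myh7*, 185, 403 and 331 CPM) lower at the later stage.

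Sarcomere genes of heart muscle went the other way, with 2 of 33 tested members higher and 13 lower (median log2FC -0.65). The count of falls was 5 with all 12 libraries fitted. The ventricular myosin heavy chain gene *myh7* (ENSDARG00000079564) was at 978, 2039.5 and 1916 CPM at 48 hpf and 185, 403 and 331 CPM at 72 hpf (log2FC -2.42 ± 0.36, padj = 0.0013), and its neighbour in the family *myh7l* at 654, 1125 and 1272 CPM at 48 hpf and 172, 301 and 266 CPM at 72 hpf (log2FC -2.04 ± 0.30, padj = 0.0013). The atrial heavy chain *myh6* also fell (log2FC -1.45 ± 0.26, padj = 0.0031), so the decrease was seen for genes of both chambers. The titin genes *ttn.1* (log2FC -2.01, padj = 0.00046) and *ttn.2* (log2FC -2.01, padj = 0.00087), which encode the molecular spring of the sarcomere, and the myosin binding protein gene *mybpc3* (log2FC -1.55, padj = 0.002) fell. The members that rose were *nebl* (log2FC 1.98, padj = 0.011), a nebulin relative of the Z-disc, and *tpm4a* (log2FC 1.01, padj = 0.0042), a tropomyosin. On average *nebl* was at 0.419 and 1.63 CPM and *tpm4a* at 519 and 1048 CPM at 48 and 72 hpf, respectively. The remaining 18 members, *myl7* and *tnnt2a* among them, did not pass.

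Of the genes that move calcium within the myocyte, 3 of 17 rose (17.6%) and 5 fell (29.4%), against 18.7% and 18.1% of all genes. Their median log2FC was -0.20, and with all 12 libraries fitted there were 1 rise and 2 falls. The sodium-calcium exchanger gene *slc8a1a* was at 42.0, 57.6 and 94.3 CPM at 48 hpf and 21.9, 26.2 and 32.0 CPM at 72 hpf (log2FC -1.28 ± 0.30, padj = 0.01). The junctional gene *trdn* (log2FC -1.53, padj = 0.0018), triadin, and 1 of the genes named *SRL* (log2FC -1.24, padj = 0.0038), sarcalumenin, also fell, and *s100a1* (log2FC 3.18, padj = 0.00056), a calcium sensor, rose from under 1 CPM. Ion channels and connexins had 8 of 46 tested members higher (17.4%, near the share of all genes) and 14 lower (30.4%), with a median log2FC of -0.39. The count of falls was 9 with all 12 libraries fitted, 7 without replicate 3 of 48 hpf and 8 without replicate 2 of 72 hpf. The pacemaker channel *hcn4* was low at both stages, at 8.41, 11.9 and 8.32 CPM at 48 hpf and 2.64, 2.83 and 2.54 CPM at 72 hpf, and fell (log2FC -1.83 ± 0.27, padj = 0.0012). The L-type calcium channel subunits split by gene, with *cacna1c*, the main one of working myocardium, at 4.39, 5.48 and 3.98 CPM at 48 hpf and 9.87, 12.8 and 17.9 CPM at 72 hpf (log2FC 1.54 ± 0.29, padj = 0.0035) and *cacna1da*, known from pacemaker cells, at 3.14, 1.37 and 2.42 CPM at 48 hpf and 0.112, 0.227 and 0 CPM at 72 hpf (log2FC -4.15 ± 0.72, padj = 0.0026). The largest rise of the list was the potassium channel modulator *kcne4*, at 9.45, 5.23 and 2.71 CPM at 48 hpf and 250.4, 421 and 396 CPM at 72 hpf (log2FC 5.93 ± 0.48, padj = 9.8e-05). Among connexins, which form gap junctions, *cx28.9* (log2FC 2.67, padj = 0.0016) and *cx43* (log2FC 1.11, padj = 0.0025) rose. *cx36.7*, a connexin of early heart muscle, was at 2.29, 3.75 and 3.58 CPM at 48 hpf and 1.86, 1.47 and 1.01 CPM at 72 hpf (log2FC -1.13 ± 0.36, padj = 0.037), a call that was lost with fewer libraries (padj = 0.1 and 0.095 without replicates 2 and 3, respectively, of 48 hpf and 0.092 and 0.1 without replicates 2 and 3, respectively, of 72 hpf).

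AVC and conduction-related transcription factors and signals changed in both directions, with 14 of 53 tested members higher and 24 lower (median log2FC -0.54). The count of rises was 9 with all 12 libraries fitted and 9 without replicate 1 of 48 hpf, and that of falls 15 with all 12 libraries fitted. *tbx20* (ENSDARG00000005150), a T-box factor of cardiac and valve development, was at 18, 34.7 and 23.0 CPM at 48 hpf and 118, 103 and 165 CPM at 72 hpf (log2FC 2.35 ± 0.29, padj = 0.00059), the GATA factor *gata5* at 114, 208 and 105 CPM at 48 hpf and 573, 489.7 and 382 CPM at 72 hpf (log2FC 1.76 ± 0.29, padj = 0.0022) and *hand2* at 494, 668 and 446 CPM at 48 hpf and 1837, 2027 and 1306 CPM at 72 hpf (log2FC 1.69 ± 0.24, padj = 0.0011). *gata6* (log2FC 1.31, padj = 0.0018) and *hey2* (log2FC 1.45, padj = 0.0039), a Notch target that restricts the AVC programme in the chambers, also rose, and so did *spock3* (log2FC 1.83, padj = 0.00026), *popdc3* (log2FC 2.41, padj = 0.00022) and *tbx1* (log2FC 1.13, padj = 0.0019).

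The T-box factors of the AVC themselves did not rise together. *tbx2a* was at 68.6, 67.2 and 60.8 CPM at 48 hpf and 83.8, 104 and 116 CPM at 72 hpf (log2FC 0.63 ± 0.18, padj = 0.026), a call that fewer libraries did not keep (padj = 0.071, 0.054 and 0.096 without replicates 1, 2 and 3, respectively, of 48 hpf and 0.082 and 0.06 without replicates 2 and 3, respectively, of 72 hpf). *tbx3a* fell (10.6, 11.1 and 11.3 CPM at 48 hpf and 3.35, 3.04 and 6.20 CPM at 72 hpf; log2FC -1.40 ± 0.31, padj = 0.008), and *tbx5a*, a factor of the chambers and the conduction system, fell from 52.2, 97.2 and 31.4 to 8.29, 4.1 and 6.64 CPM (log2FC -3.25 ± 0.44, padj = 0.00084). *isl1*, a factor of the sinoatrial pacemaker and of the second heart field, was at 99.9, 69.7 and 96.4 CPM at 48 hpf and 12.9, 6.59 and 11.6 CPM at 72 hpf (log2FC -3.1 ± 0.29, padj = 0.00019), and *shox2*, which maintains the pacemaker programme, at 4.21, 5.40 and 3.76 CPM at 48 hpf and 0.987, 1.00 and 1.21 CPM at 72 hpf (log2FC -2.07 ± 0.31, padj = 0.0014). Of these, *isl1* is also on the neuronal marker list, whose sum was lower at 72 hpf. Whether its fall is related to that sum was not tested. *nkx2.5*, a core cardiac factor, was at 21.7, 19.5 and 25.6 CPM at 48 hpf and 11.1, 13.4 and 11.5 CPM at 72 hpf (log2FC -0.89 ± 0.21, padj = 0.0094). *foxn4*, which acts upstream of *tbx2b* in the zebrafish AVC, was at 5.43, 6.14 and 5.71 CPM at 48 hpf and 0.484, 0.359 and 1.25 CPM at 72 hpf (log2FC -3.11 ± 0.47, padj = 0.0014). The natriuretic peptide genes, markers of chamber muscle that are low in the AVC, were lower or did not pass. *nppal* was at 8.30, 2.44 and 20.0 CPM at 48 hpf and 0.186, 0.0189 and 0 CPM at 72 hpf (log2FC -6.94 ± 1.03, padj = 0.0013), *nppb* at 93.1, 73.6 and 151 CPM at 48 hpf and 48.2, 49.1 and 27.4 CPM at 72 hpf (log2FC -1.35 ± 0.32, padj = 0.01), and *nppa* at 169, 154 and 375 CPM at 48 hpf and 124, 177 and 97.8 CPM at 72 hpf with no call (log2FC -0.80 ± 0.36, padj = 0.11).

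Further falls among the factors were *prrx1a* (log2FC -2.14, padj = 0.00061) and *prrx1b* (log2FC -2.7, padj = 0.00034), of mesenchyme, *meis2b* (log2FC -1.69, padj = 0.002), *IRX5* (log2FC -1.14, padj = 0.0043), *IRX4* (log2FC -2.52, padj = 0.0084) and both genes named *IRX1* (log2FC -2.26 and -3.89). In the cushion matrix, the hyaluronan link protein gene *hapln1a* was at 654, 1032 and 644 CPM at 48 hpf and 148, 246 and 416 CPM at 72 hpf (log2FC -1.53 ± 0.36, padj = 0.011), the versican gene *vcanb* at 152, 411 and 153 CPM at 48 hpf and 97.5, 149.7 and 181 CPM at 72 hpf with no call (log2FC -0.74 ± 0.40, padj = 0.18), and the hyaluronan synthase gene *HAS2* at 99.8, 208 and 105 CPM at 48 hpf and 183, 234 and 309 CPM at 72 hpf (log2FC 0.82 ± 0.32, padj = 0.071; with fewer libraries padj = 0.0099 without replicate 2 of 48 hpf). *alcamb*, a cell adhesion gene of myocardium, fell (log2FC -0.88, padj = 0.0099), and *ALCAM* rose (log2FC 0.62, padj = 0.028), the second not with every set of 5 libraries (padj = 0.11, 0.051 and 0.078 without replicates 1, 2 and 3, respectively, of 48 hpf and 0.051 without replicate 1 of 72 hpf). The calls of *tbx18* (log2FC 1.76, padj = 0.02), *zfpm1* (log2FC 1.15, padj = 0.015), *nkx2.7* (log2FC -1.55, padj = 0.027), *tbx3b* (log2FC -1.78, padj = 0.027) and *tbx5b* (log2FC -1.88, padj = 0.015) were also lost in some. For *tbx18* padj = 0.052 without replicate 1 of 48 hpf and 0.057 and 0.057 without replicates 1 and 2, respectively, of 72 hpf, for *zfpm1* padj = 0.056 without replicate 1 of 48 hpf, for *nkx2.7* padj = 0.079 and 0.084 without replicates 2 and 3, respectively, of 48 hpf and 0.066, 0.058 and 0.085 without replicates 1, 2 and 3, respectively, of 72 hpf, for *tbx3b* padj = 0.11 without replicate 3 of 48 hpf and 0.082 and 0.078 without replicates 2 and 3, respectively, of 72 hpf and for *tbx5b* padj = 0.057 without replicate 2 of 48 hpf and 0.056 and 0.053 without replicates 1 and 3, respectively, of 72 hpf. Both genes named *ISL2*, LIM homeodomain factors, were lower (log2FC -1.78, padj = 0.0032 at 32.26 CPM on average at 48 hpf and log2FC -1.65, padj = 0.028 at 30.6 CPM on average at 48 hpf, with padj = 0.054 and 0.067 without replicates 1 and 3, respectively, of 48 hpf).

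The members that did not pass included *wnt2bb* (2.95, 3.95 and 4.77 CPM at 48 hpf and 2.48, 3.1 and 2.98 CPM at 72 hpf; log2FC -0.45 ± 0.30, padj = 0.27), the homeobox gene *hnf1ba* (log2FC -0.54, padj = 0.12), *gata4* (log2FC 0.30, padj = 0.43), *popdc2* (log2FC -0.15, padj = 0.72), *bves* (log2FC 0.29, padj = 0.39), *vcana* (log2FC -0.36, padj = 0.51), *ZFPM2* (log2FC -0.01, padj = 0.98), *HAPLN1* (log2FC 0.04, padj = 0.93) and both genes named *MEF2C* (log2FC 0.20 and -0.16). Of the genes named *IRX3*, the more abundant did not pass (log2FC 0.49, padj = 0.11; padj = 0.042 without replicate 3 of 72 hpf) and the other fell (log2FC -3.13, padj = 0.0045). The cushion EMT factor *snai1b* was at 21.2, 20.2 and 23.7 CPM at 48 hpf and 22.6, 19.7 and 28.5 CPM at 72 hpf (log2FC 0.12 ± 0.21, padj = 0.68).

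Collagen genes had 13 of 45 tested members higher and 8 lower (17.78%, near the 18.1% of all genes), with a median log2FC of 0.41. The falls numbered 5 without replicate 2 of 72 hpf. The fibrillar collagen I gene *col1a2* was at 1065, 764 and 597 CPM at 48 hpf and 2023, 1564 and 2643 CPM at 72 hpf (log2FC 1.36 ± 0.28, padj = 0.0052), whereas *col1a1a*, which encodes its partner chain, was at 3514, 8364 and 2269 CPM at 48 hpf and 1601, 1448 and 3987 CPM at 72 hpf and did not pass (log2FC -1.01 ± 0.52, padj = 0.16; with fewer libraries padj = 0.045 without replicate 3 of 72 hpf). The basement membrane collagen *col18a1b* was at 21.3, 28.1 and 19.4 CPM at 48 hpf and 322, 287 and 183 CPM at 72 hpf (log2FC 3.52 ± 0.27, padj = 8.1e-05). Both genes named *col6a3*, a microfibrillar collagen, *col12a1a* (log2FC 1.90, padj = 0.00025) and *col5a2a* (log2FC 1.74, padj = 0.00092) rose (for the first, log2FC 2.45 and 2.93). The falls were of minor collagens, such as *col7a1* (log2FC -3.46, padj = 0.0042), of anchoring fibrils, *col5a3b* (log2FC -3.49, padj = 0.0063), *col14a1b* (log2FC -2.23, padj = 0.0043) and *col23a1a* (log2FC -1.74, padj = 0.0059).

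Proteoglycans and matrix glycoproteins had 30 of 70 tested members higher (42.9%) and 15 lower (21.4%, against 18.1% of all genes), with a median log2FC of 0.50. The falls numbered 9 without replicate 1 of 48 hpf and 8 without replicate 2 of 72 hpf. Fibronectin *fn1b* was at 57.8, 26.0 and 45.2 CPM at 48 hpf and 666, 672 and 1002 CPM at 72 hpf (log2FC 4.18 ± 0.34, padj = 0.0001) and its paralog *fn1a* at 342, 466 and 236 CPM at 48 hpf and 1166, 1469.9 and 2392 CPM at 72 hpf (log2FC 2.27 ± 0.33, padj = 0.0013). The collagen-binding *cthrc1a* (log2FC 4.61, padj = 4.3e-05), cartilage oligomeric matrix protein *comp* (log2FC 4.09, padj = 6.3e-05) and aggrecan *acana* (log2FC 4.03, padj = 0.0037), a proteoglycan of cartilage and valves, rose. In the same list the tenascins *tnn* (87.5, 87.0 and 145 CPM at 48 hpf and 3.28, 8.97 and 13.4 CPM at 72 hpf; log2FC -3.65 ± 0.48, padj = 0.00075) and *TNC* (log2FC -2.37, padj = 0.0062), the laminin genes *LAMA1* (log2FC -2.99, padj = 0.0067) and *LAMB1* (log2FC -2.07, padj = 0.0026) and *tgfbi* (log2FC -2.14, padj = 0.002) fell (*TNC* here is ENSDARG00000021948 and *LAMB1* is ENSDARG00000045524, each 1 of a pair of genes of that name). Matrix proteases and inhibitors had 15 of 53 tested members higher (28.3%) and 9 lower (17.0%, near the share of all genes), with a median log2FC of 0.14. The gelatinase *mmp2* (log2FC 1.55, padj = 0.00055), its activator *mmp14a* (log2FC 1.88, padj = 0.00035) and the inhibitors *timp2a* (log2FC 1.87, padj = 0.00018) and *timp2b* (log2FC 2.09, padj = 0.0023) rose, and *mmp11b* (log2FC -3.29, padj = 0.00064), *adamts16* (log2FC -4.68, padj = 0.00024) and *ADAMTS5* (log2FC -2.97, padj = 0.004), a versican-cleaving protease, fell.

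In the TGF-β and BMP pathway 26 of 89 tested members rose and 16 fell (17.98%, near the 18.1% of all genes), with a median log2FC of 0.20. The falls numbered 10 with all 12 libraries fitted and 25 with total-count scaling. Ligands went both ways. *tgfb2*, the TGF-β ligand of cushion formation, was at 4.1, 5.86 and 3.87 CPM at 48 hpf and 17.9, 37.1 and 28.5 CPM at 72 hpf (log2FC 2.59 ± 0.32, padj = 0.00056), while *bmp10*, a cardiac BMP, was at 9.61, 23.9 and 12.4 CPM at 48 hpf and 0.782, 0.906 and 2.05 CPM at 72 hpf (log2FC -3.66 ± 0.49, padj = 0.00083) and *bmp2a* at 47.4, 47.3 and 28.4 CPM at 48 hpf and 6.67, 3.34 and 6.32 CPM at 72 hpf (log2FC -2.92 ± 0.33, padj = 0.0004). *gdf11* (log2FC -3.08, padj = 0.00046) fell and *gdf10a* (log2FC 1.93, padj = 0.00095) rose. Secreted inhibitors made up the largest rises. Both genes named *grem1a*, a BMP antagonist, went from 1.36, 0.219 and 1.45 CPM and 0.772, 1.15 and 0.579 CPM to 52.3, 51.9 and 45.1 CPM and 34.9, 50.8 and 29.9 CPM (log2FC 5.64 and 5.51), and the follistatin relatives *fstl3* (2.34, 4.36 and 5.93 CPM at 48 hpf and 116, 112 and 88.0 CPM at 72 hpf; log2FC 4.65 ± 0.35, padj = 7.2e-05) and *fstl1b* (log2FC 2.05 ± 0.31, padj = 0.0013) rose. *GREM1*, another gremlin gene, fell (log2FC -2.29 ± 0.41, padj = 0.0031). Among receptors, *bmpr1bb* (log2FC -2.60, padj = 0.00069) fell. Of the intracellular mediators, *smad9* (log2FC 2.27, padj = 0.00027) and the inhibitory *smad6a* (log2FC 1.48, padj = 0.0035) rose.

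Notch pathway genes had 6 of 46 tested members higher and 15 lower (median log2FC -0.07). The rises numbered 3 with all 12 libraries fitted. The receptor *notch1b*, which marks AVC endocardium in zebrafish, was at 65.9, 107 and 64.1 CPM at 48 hpf and 16, 16.9 and 21.2 CPM at 72 hpf (log2FC -2.13 ± 0.25, padj = 0.00048), and *notch1a* at 91.8, 183 and 98.6 CPM at 48 hpf and 29.1, 20.7 and 38.6 CPM at 72 hpf (log2FC -2.08 ± 0.33, padj = 0.0017). The ligands *dll4*, of endothelium, *dla* and *dlb*, of the nervous system, fell (log2FC -1.87, padj = 0.00022, log2FC -3.52, padj = 4.6e-05 and log2FC -2.58, padj = 0.00017), and *jag1a* (log2FC 1.39, padj = 0.0038) rose. Target genes split in the same way, with *her15.1* and *her12* lower (log2FC -3.65 ± 0.58, padj = 0.0018 and log2FC -4.54 ± 0.81, padj = 0.003) and *her4.1* at 11.8, 8.38 and 18.6 CPM at 48 hpf and 78.8, 61.7 and 63.6 CPM at 72 hpf (log2FC 2.40 ± 0.30, padj = 0.00057). The neuronal marker sum was also lower at 72 hpf, and whether the Notch falls are related to it was not tested.

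Of the Wnt genes 16 of 84 rose (19.0%) and 28 fell (33.3%), against 18.7% and 18.1% of all genes (median log2FC -0.22). The ligand *wnt9b*, of the cushion endocardium in zebrafish and mouse, was at 44.3, 47.0 and 51.5 CPM at 48 hpf and 1.15, 4.34 and 3.74 CPM at 72 hpf (log2FC -3.96 ± 0.44, padj = 0.00038), and *wnt2* at 35.2, 25.7 and 33.8 CPM at 48 hpf and 2.77, 0.566 and 3.58 CPM at 72 hpf (log2FC -3.80 ± 0.56, padj = 0.0012). *wnt5b* (log2FC -2.22, padj = 0.00072) and *wnt10a* (log2FC -3.74, padj = 0.00013) fell too. The ligand *wnt11*, of the non-canonical branch, rose (115, 97.5 and 107 CPM at 48 hpf and 461, 371 and 504 CPM at 72 hpf; log2FC 2.07 ± 0.19, padj = 0.00017). The receptor genes *fzd9a* (log2FC 4.48, padj = 0.00022) and *fzd10* (log2FC 1.80, padj = 0.0007) and the antagonist genes *dkk3b* (log2FC 1.97, padj = 0.00069) and *dkk1b* (log2FC 1.90, padj = 0.0031) rose. Factors of epithelial-to-mesenchymal transition had 13 of 36 tested members higher and 11 lower (median log2FC 0.22). *snai2*, a repressor of cadherins, was at 120.4, 233 and 202 CPM at 48 hpf and 894, 1294 and 878 CPM at 72 hpf (log2FC 2.47 ± 0.29, padj = 0.00046), and *twist1b* (log2FC 2.40, padj = 0.00092), *msx3* (log2FC 3.43, padj = 0.00023), *msx1b* (log2FC 1.21, padj = 0.0024) and the mesenchymal cadherin *cdh11* (log2FC 1.27, padj = 0.0038) rose with it. *foxf2a* was at 561, 291 and 397 CPM at 48 hpf and 119.8, 59.9 and 190.4 CPM at 72 hpf (log2FC -1.76 ± 0.40, padj = 0.0092), and *twist3* (log2FC -2.74, padj = 0.0005) and *msx2b* (log2FC -1.82, padj = 0.0007) fell.

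Proliferation genes fell, with 72 of 102 tested members lower (median log2FC -0.90), and with all 12 libraries fitted 46 were lower. The count of rises was 0 by edgeR, with 0 at an unadjusted p below 0.05 and 0 by DESeq2. The proliferation marker *mki67* (ENSDARG00000091150) was at 679, 1132 and 734 CPM at 48 hpf and 184, 258 and 305 CPM at 72 hpf (log2FC -1.77 ± 0.27, padj = 0.0015), and the replication clamp *PCNA* at 1100.3, 1199 and 1208 CPM at 48 hpf and 668, 460.5 and 392 CPM at 72 hpf (log2FC -1.21 ± 0.23, padj = 0.0037). The groups did not overlap for either gene, which held for 25.9% of all tested genes in this direction. The mitotic genes *CENPF* (log2FC -2.34, padj = 0.00044), *cenpe* (log2FC -1.78, padj = 0.0051) and *TOP2A* (log2FC -1.53, padj = 0.0013) and the replication genes *MCM7* (log2FC -1.67, padj = 0.0046) and *CCNE2* (log2FC -1.85, padj = 0.00021) fell.

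Genes of sugar metabolism rose beyond *fbp2*, with 24 of 66 tested members higher and 8 lower (median log2FC 0.59). The aldolase gene *aldocb* was at 109, 59.18 and 104 CPM at 48 hpf and 1974, 765 and 2351 CPM at 72 hpf (log2FC 4.22 ± 0.45, padj = 0.00032), the phosphofructokinase gene *pfkpa* at 23.3, 28.4 and 26.2 CPM at 48 hpf and 290.1, 173 and 556 CPM at 72 hpf (log2FC 3.71 ± 0.40, padj = 0.00034) and the pyruvate kinase gene *pkma* at 116, 99.4 and 146 CPM at 48 hpf and 1484, 601 and 1719.8 CPM at 72 hpf (log2FC 3.40 ± 0.39, padj = 0.00041). *gapdhs* (log2FC 2.29, padj = 0.0015), *ldha* (log2FC 2.22, padj = 0.0015), lactate dehydrogenase A, and the lactate exporter *slc16a3* (log2FC 2.58, padj = 0.0024) rose. Isozymes of the same steps fell, including 1 of the genes named *PFKL* (log2FC -2.17, padj = 0.0006) and *aldoab* (log2FC -1.48, padj = 0.0055), as did glycogen phosphorylase *pygmb* (log2FC -1.55, padj = 0.0041) and the transporter *SLC16A1* (log2FC -1.92, padj = 0.0015). In the GFP− fraction the sugar metabolism list had a median log2FC of 1.62, with 39 members higher and 4 lower. Genes of fatty acid oxidation had 19 of 59 tested members higher (32.2%) and 11 lower (18.6%, near the share of all genes), with a median log2FC of 0.42. With all 12 libraries fitted 12 were higher and 7 lower. *pdk2a*, which holds pyruvate back from oxidation, was at 72.5, 70.22 and 81.0 CPM at 48 hpf and 230.5, 400.5 and 301 CPM at 72 hpf (log2FC 2.06 ± 0.23, padj = 0.00039), and the transcriptional coactivator *PPARGC1A* at 10.8, 11.5 and 16.5 CPM at 48 hpf and 2.53, 0.963 and 2.17 CPM at 72 hpf (log2FC -2.78 ± 0.39, padj = 0.001). *cpt1ab* (log2FC 1.39, padj = 0.0019), the gate of fatty acid entry into mitochondria, and *hadhaa* (log2FC 1.14, padj = 0.0013) rose.

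For the oxidative phosphorylation genes 20 of 103 rose and 1 fell (median log2FC 0.43), a share of rises of 19.4% against 18.7% of all genes. That count moved with the libraries used, to 3 with all 12 libraries fitted, 12 with total-count scaling, 12 without replicate 1 of 48 hpf, 11 without replicate 2 of 48 hpf, 13 without replicate 1 of 72 hpf, 13 without replicate 2 of 72 hpf and 44 without replicate 3 of 72 hpf. *cox7a1* (log2FC 2.68, padj = 0.0012), a muscle form of a cytochrome c oxidase subunit, had the largest rise of those that held. Cytosolic ribosome genes had 4 rises and 3 falls among 95. The rises numbered 8 with DESeq2, 1 with all 12 libraries fitted, 2 with total-count scaling, 2 without replicate 1 of 48 hpf, 1 without replicate 2 of 48 hpf, 2 without replicate 1 of 72 hpf and 8 without replicate 3 of 72 hpf, and the falls 1 with all 12 libraries fitted, 11 with total-count scaling, 21 without replicate 1 of 72 hpf, 1 without replicate 2 of 72 hpf and 1 without replicate 3 of 72 hpf. Mitochondrial ribosome genes had 3 rises and 3 falls among 75. The rises numbered 1 with all 12 libraries fitted, and the falls 5 with DESeq2, 0 with all 12 libraries fitted, 14 with total-count scaling and 6 without replicate 1 of 72 hpf. Of 42 proteasome genes 0 passed by edgeR, 3 had an unadjusted p below 0.05 and 1 passed by DESeq2. There were 5 rises without replicate 3 of 72 hpf and 1 fall without replicate 1 of 72 hpf.

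Endocardial and endothelial markers had 3 of 30 tested members higher and 18 lower (median log2FC -0.99), with 10 falls when all 12 libraries were fitted. Their summed level was 2598 to 4031 CPM at 48 hpf and 1827 to 2077 CPM at 72 hpf. The VEGF receptor *flt1* was at 82.2, 112 and 83.0 CPM at 48 hpf and 11.8, 10.8 and 15.5 CPM at 72 hpf (log2FC -2.87 ± 0.23, padj = 9.5e-05), the scavenger receptor *stab1* at 38.5, 70.7 and 34.9 CPM at 48 hpf and 5.77, 4.72 and 8.25 CPM at 72 hpf (log2FC -2.95 ± 0.34, padj = 0.00043) and the angiopoietin receptor *tek* at 44.8, 101 and 44.5 CPM at 48 hpf and 23.6, 8.61 and 15.09 CPM at 72 hpf (log2FC -2.01 ± 0.43, padj = 0.0067). Against these, the tight junction gene *cldn5a* (6.07, 9.18 and 10.7 CPM at 48 hpf and 57.1, 70.06 and 58.0 CPM at 72 hpf; log2FC 2.84 ± 0.25, padj = 0.00014) and von Willebrand factor, *vwf* (6.57, 14.5 and 7.52 CPM at 48 hpf and 64.1, 86.9 and 52.4 CPM at 72 hpf; log2FC 2.83 ± 0.34, padj = 0.00054), rose. Of 11 epicardial markers 5 rose and 1 fell, with a sum of 1129 to 1234 CPM at 48 hpf and 1882 to 3612 CPM at 72 hpf. The rises were 8 with DESeq2 and 8 without replicate 3 of 72 hpf. The fall was of *TCF15* (log2FC -2.68 ± 0.55, padj = 0.0056). With all 6 libraries *wt1b* (padj = 0.060), *TCF21* (padj = 0.092) and *aldh1a2* (padj = 0.20) did not pass. *wt1a*, a defining factor of the epicardium, was at 1.33, 0.521 and 1.48 CPM at 48 hpf and 10.6, 7.21 and 3.74 CPM at 72 hpf (log2FC 2.7 ± 0.50, padj = 0.0035), and *podxl* (log2FC 1.27, padj = 0.003) and *bnc2* (log2FC 1.04, padj = 0.0014) rose.

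Genes that respond within minutes to handling and dissociation had 29 of 60 tested members higher and 7 lower (median log2FC 0.67). The falls were 4 without replicate 1 of 48 hpf. *egr1* was at 553, 812 and 405 CPM at 48 hpf and 2138, 1778 and 2519.7 CPM at 72 hpf (log2FC 1.86 ± 0.28, padj = 0.0013), the inhibitor of NF-κB *nfkbiaa* at 14.2, 16.1 and 28.7 CPM at 48 hpf and 176, 100.2 and 93.9 CPM at 72 hpf (log2FC 2.65 ± 0.35, padj = 0.00075) and *cebpd* at 45.7, 41.9 and 59.7 CPM at 48 hpf and 422, 225 and 146 CPM at 72 hpf (log2FC 2.43 ± 0.37, padj = 0.0014). *klf2b*, a flow-responsive factor of the endocardium that the list also holds, fell (744, 1015 and 659 CPM at 48 hpf and 129, 144 and 220.5 CPM at 72 hpf; log2FC -2.29 ± 0.27, padj = 0.00046). The gene listed as *CR383676.2*, which the name table calls *malat1*, a nuclear RNA, was at 5709.8, 4678 and 4647 CPM at 48 hpf and 29149, 29589 and 21504 CPM at 72 hpf (log2FC 2.42 ± 0.23, padj = 0.00018). The part of handling or RNA quality in the other results was not tested.

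The change between the stages was then set against that of the GFP− cells, in a fit of all 12 libraries with the difference of both changes tested (GFP+ minus GFP−, 23222 genes). Both fractions came from the same hearts. In the GFP− fraction 6051 genes rose (26.1%) and 5168 fell (22.3%). The difference was above 0 for 573 genes (2.47%) and below 0 for 1324 genes (5.7%). Of the 2780 rises with a log2FC above 1 in GFP+ cells, 230 had a difference above 0 that passed, and of the 3018 falls 412 had one below 0. These genes were picked by their change in GFP+ cells, which also enters the difference, so both counts are no independent result. Per the study's methods, each replicate held both fractions of both stages, so the fractions of 1 stage and number form a pair. With each such pair as a block, an alternative chosen after the data were seen, 1036 genes were above and 1536 below. Unless stated, the differences and their padj are from the fit without this block, which ignores the pair. Leaving out 1 library moved the counts of the fit without a block. Among the GFP− libraries of 48 hpf they were 323 above and 725 below without replicate 1 and 287 above and 788 below without replicate 3. Among the GFP− libraries of 72 hpf they were 980 above and 1675 below without replicate 1, 379 above and 998 below without replicate 2 and 1461 above and 2103 below without replicate 3. Among the GFP+ libraries of 48 hpf they were 290 above and 765 below without replicate 1 and 286 above and 761 below without replicate 3. Among the GFP+ libraries of 72 hpf they were 338 above and 755 below without replicate 1, 303 above and 664 below without replicate 2 and 355 above and 871 below without replicate 3. Sarcomere genes rose in GFP− cells (20 of 33, median log2FC 1.80), and 13 had a difference below 0. That count was 20 with DESeq2, 2 without replicate 1 and 3 without replicate 3 of GFP− 48 hpf, 8 without replicate 2 of GFP− 72 hpf, 7 without replicate 1, 8 without replicate 2 and 1 without replicate 3 of GFP+ 48 hpf, 5 without replicate 1, 6 without replicate 2 and 2 without replicate 3 of GFP+ 72 hpf. The liver list, with 31 of 35 members higher in GFP− cells, had 22 below, and the skeletal muscle list 20 of 42. With each library left out these 2 counts ranged from 19 to 24 and from 16 to 21. The sugar metabolism list, with 39 of 66 members higher in GFP− cells, had 20 below. *fbp2* rose in both fractions (log2FC 12.10 in GFP+ and 15.29 in GFP− cells), and its difference did not pass (padj = 0.094). Of the oxidative phosphorylation genes 81 of 103 rose in GFP− cells, and 3 had a difference below 0. Proliferation genes fell in GFP− cells too, with 66 of 102 lower (median log2FC -1.23), and no member had a difference that passed. Of the 60 early response genes 39 rose there (median log2FC 1.15), with 1 difference above 0 and 4 below. These shifts were thus not particular to GFP+ cells.

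Single genes showed both directions. Smooth muscle actin, *acta2*, rose in both fractions but less in GFP+ cells (log2FC 4.3 in GFP+ and 9.40 in GFP− cells; difference -5.09 ± 0.64, padj = 0.0018), and so did *tagln* (log2FC 5.50 in GFP+ and 12.11 in GFP− cells; difference -6.60 ± 1.12, padj = 0.0056). The core cardiac factor *nkx2.5* fell in GFP+ cells and had a log2FC above 0 in GFP− cells (log2FC -0.89 in GFP+ and 1.68 in GFP− cells; difference -2.55 ± 0.46, padj = 0.0077), and *isl1* fell more in GFP+ cells (log2FC -3.1 in GFP+ and -0.43 in GFP− cells; difference -2.66 ± 0.50, padj = 0.0087). In the other direction, *cldn5a* (log2FC 2.84 in GFP+ and -0.83 in GFP− cells; difference 3.69 ± 0.50, padj = 0.0024) and *col18a1b* (log2FC 3.52 in GFP+ and 0.77 in GFP− cells; difference 2.78 ± 0.57, padj = 0.012) had differences above 0. For *loxa* the difference did not pass (0.19 ± 0.93, padj = 0.91), so its rise was not shown to differ between the fractions.

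**Figure D5:**
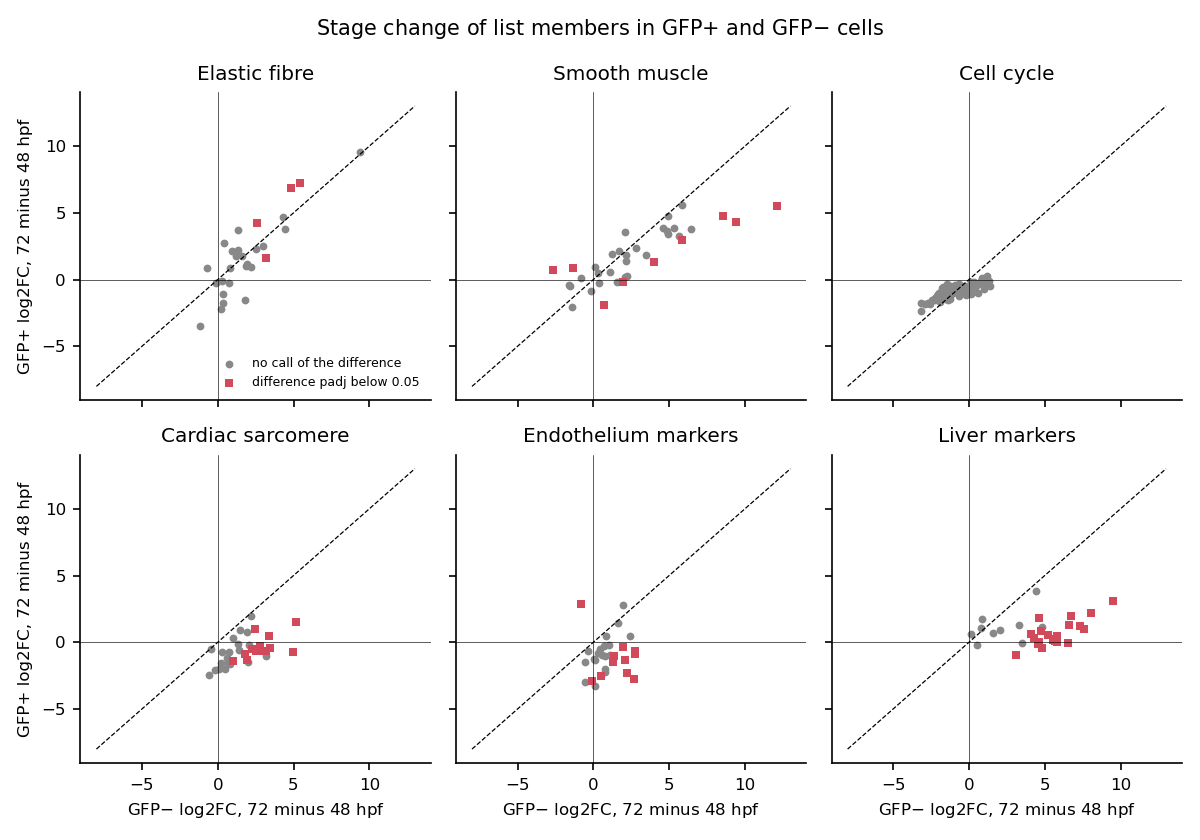
Log2FC of 72 over 48 hpf in GFP+ cells (vertical axis) against that in GFP− cells (horizontal axis) for members of 6 gene lists, with squares where the difference passed (padj below 0.05) and the dashed line marking equal change. Elastic fibre genes lie on both sides of the line (median log2FC 1.76 and 1.60), while the medians of sarcomere genes (-0.65 and 1.80) and liver markers (0.71 and 4.82) lie below it. Genes at 3 counts or fewer in every library of a stage are not drawn.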

How the data were processed

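RNA-seq of sorted GFP+ and GFP− cells from *sqet31Et* hearts at 48 and 72 hpf was used, 3 libraries a group. The authors deposited raw counts per gene for each library, which they had made from SMART-Seq v4 and Nextera XT libraries with bcl2fastq 2.16.0.10, cutadapt 1.17 and Salmon 0.9.1 against GRCz11 (R 3.5.2 and DESeq2 1.29.13 are also named in their processing notes). Salmon shares reads among near-identical transcripts, so paralogs are uncertain. The 27191 genes were named from the gene names in the study's tables (4147) and a name table (21461), and 1583 kept their identifier. Each library was grouped by its label.

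Counts were tested with the quasi-likelihood test of edgeR 4.0.16 (R 4.3.3) on the 6 GFP+ libraries, with filterByExpr, TMM and no block, and p-values were adjusted by Benjamini-Hochberg over 21744 genes. The difference between fractions was fitted on all 12 libraries. There the number pairs the fractions of a stage, from the study's methods, with correlations of their deviations of 0.10, 0.31 and 0.16 at 48 hpf and 0.34, -0.08 and 0.37 at 72 hpf. DESeq2 1.42.0, other scalings and filters, glmTreat, the replicate block, all 12 libraries and each library left out were alternatives. On simulated data for 21744 genes, of which 200 were changed, edgeR recovered 9.0%, 67.2% and 90.9% of those changed by log2 1, 2 and 4. It called 17 unchanged genes. Far more genes changed in the data, so these shares do not give the recovery there. Counts of 3 or fewer in every library of a stage were taken as the floor, and ratios there have 95% exact binomial intervals, which cover counting error only.

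The named genes are the 10 leading rises and falls (padj below 0.05, absolute log2FC above 1, mean log2 CPM of at least 3, no overlap, same sign in all 3 same-numbered pairs), up to 4 members a direction in each list by log2FC, a fixed set of heart genes, and the elastic fibre and AVC lists. Members whose call was lost when 1 library was left out were counted but not named, except in those sets, and other members that kept theirs were named after their values were seen. The members and lists were chosen with earlier results of these data known. A few members that this rule names are not reported here. Sequences were not used here.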

Additional observations from a re-analysis of the deposited data

Results flagged for a closer look

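The change between 72 and 48 hpf differed between the GFP+ and GFP− cells (padj below 0.05, edgeR, 12 libraries) for 58 of the named genes. The difference is given as the log2FC in GFP+ cells minus that in GFP− cells, on the log2 scale. Among the 58 it was below 0 for 42 genes and above 0 for 16. The sign is not that of the change in GFP+ cells. Of the 42 genes below 0, 19 rose in GFP− cells (padj below 0.05), against 26.1% of all genes there. *myl7*, below 0, had a log2FC of -0.65 in GFP+ and 3.17 in GFP− cells. *IRX1*, above 0, had a log2FC of -2.26 in GFP+ and -4.21 in GFP− cells. Outside this count, *trpv6*, at the floor at 48 hpf, had a difference of 8.65 ± 1.72 (padj = 0.011). The epicardial marker *TCF15*, which the count did not include either, had a difference of -4.61 ± 1.11 (padj = 0.025). Of the 58, 30 passed in all 12 fits that each left out 1 library. The others passed in 2 to 11 of these fits, such as *myl7* in 5 and *tnnt2a* and *nppb* in 2 each. These genes were mostly named for their change in GFP+ cells, so the count of signs is no independent result.

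Of the leading falls of GFP+ cells, 7 had differences that passed, of -11.68 for *sst2*, -9.76 for *sst1.2*, -4.33 for *SIX3*, -4.19 for *ZIC1*, -3.92 for *SLC1A2*, -4.21 for *FABP7* and -5.42 for *ifi30b*. For heart muscle genes and several members of the AVC list the differences were -3.79 for *myl7*, -3.12 for *tnnt2a*, -2.98 for *trdn*, -7.04 for *nppal*, -3.97 for *nppb*, -2.55 for *nkx2.5*, -2.66 for *isl1*, -2.47 for *ISL2*, -2.50 for *ISL2*, -2.87 for *wnt2bb*, -1.54 for *bves* and -1.41 for *tpm4a*. For smooth muscle and intermediate filament genes they were -5.09 for *acta2*, -6.60 for *tagln*, -3.74 for *cald1b*, -2.87 for *mylkb* and -2.63 for *desma*. Matrix genes below 0 had -4.23 for *col7a1*, -3.85 for *col5a3b*, -2.87 for *col14a1b*, -4.09 for *adamts16*, -3.15 for *mmp11b*, -3.09 for *tnn*, -2.56 for *tgfbi*, -1.52 for *mfap2* and -2.38 for *HAPLN1*. The remaining genes below 0, of signalling, mesenchymal transition, vessels and metabolism, had -3.93 for *bmp10*, -3.09 for *bmp2a*, -2.45 for *GREM1*, -3.37 for *wnt2*, -3.34 for *twist3*, -3.09 for *msx2b*, -2.87 for *foxf2a*, -2.75 for *flt1* and -2.99 for *aldoab*.

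Above 0 were the matrix genes, with 2.06 for *fbln5*, 1.83 for *htra1a*, 1.67 for *htra1b*, 2.00 for *col12a1a*, 2.78 for *col18a1b* and 2.56 for *comp*. The signalling genes had 3.47 for *jag1a*, 3.21 for *her4.1*, 2.80 for *fzd10*, 3.09 for *grem1a* and 3.39 for *tnfsf12*. For the other genes the differences were 3.69 for *cldn5a*, 3.16 for *bnc2*, 1.32 for *spock3*, 1.96 for *IRX1* and 2.84 for *IRX3*. Several of these differences rest on few reads in the GFP− libraries. At 48 hpf those held 5, 2 and 5 counts of *tagln*, 6, 8 and 4 of *cald1b* and 10, 12 and 3 of *wnt2bb*. For the somatostatin genes replicate 2 stood apart there, with 7, 821 and 22 counts of *sst2* and 12, 462 and 14 of *sst1.2*, and the differences ranged from -15.80 to -9.46 and from -13.28 to -7.73 with 1 library left out. With the replicate number as a block, *col5a3b* (padj = 0.063) and *tpm4a* (padj = 0.054) did not pass, and with each pair of fractions as a block *SLC1A2* (padj = 0.052), *col5a3b* (padj = 0.059) and *col14a1b* (padj = 0.061) did not. The genes that passed in all 12 fits were *sst2*, *sst1.2*, *nppal*, *tagln*, *acta2*, *SIX3*, *FABP7*, *ZIC1*, *adamts16*, *bmp10*, *cald1b*, *twist3*, *mmp11b*, *bmp2a*, *msx2b*, *aldoab*, *trdn*, *wnt2bb*, *foxf2a*, *isl1*, *nkx2.5*, *ISL2* (ENSDARG00000003971), *col12a1a*, *comp*, *col18a1b*, *fzd10*, *IRX3*, *bnc2*, *tnfsf12* and *cldn5a*. The other gene named *ISL2* passed in 2. No result was flagged for a library standing apart, since groups of 3 are not tested for that. Yet at 72 hpf replicate 1 of the GFP− libraries held few counts of several of these genes. Replicates 1, 2 and 3 there had 20, 394 and 325 counts of *jag1a* and 205, 1734 and 1229 of *comp*, before scaling. Other genes did not go that way, such as *sst2* with 8004, 3998 and 842 counts. Without that library 2655 genes differed between the fractions, against 1897 with all 12.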

How the results depend on the processing

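The 2780 rises and 3018 falls with an absolute log2FC above 1 were 2799 and 3014 with DESeq2 size factors, 2894 and 3141 with DESeq2, 2834 and 3040 with no filter, 2812 and 3073 with a minimum of 10 counts in each library of 1 stage, 2353 and 2491 with all 12 libraries, and 1889 and 4304 with total counts. With glmTreat, which tests against a log2FC of 1, they were 1148 and 1146. With 1 library left out they ranged from 2352 to 2851 and from 2269 to 2964. The cause of these moves was not tested. No named gene that passed the test changed direction under any setting, although 22 of the 208 that had passed lost their call with all 12 libraries, 5 with total counts and 5 with the replicate block. Most of these genes were named for a large change in the same data. Members that lost their call with 1 library left out were mostly not named. The stability of this set was thus partly fixed in advance and is no measure of that of other genes.

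With the replicate number as a block, 2671 genes were higher and 2818 lower, of which 2572 and 2703 were among the main calls. Libraries of the same number did not deviate together (r = 0.0013, 0.0027 and -0.136 across genes for numbers 1, 2 and 3), so the numbers were not taken as a pairing, and not every library correlated best with its own number. Under the block the member counts that moved by over 1.5 times were circadian rises 3, retina falls 12, neural crest rises 2, oxidative phosphorylation rises 13 and oxidative phosphorylation falls 0.

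Other member counts that moved by over 1.5 times from the counts given in the results were as follows. With all 12 libraries fitted they were sarcomere falls 5, calcium cycling rises 1, calcium cycling falls 2, ion channels falls 9, AVC factors rises 9, AVC factors falls 15, TGF-β and BMP falls 10, Notch rises 3, cell cycle falls 46, fatty acid rises 12, fatty acid falls 7, circadian rises 2, circadian falls 1, endothelium falls 10, liver falls 0, erythroid falls 3, leukocyte falls 5, epithelium falls 2, cytosolic ribosome rises 1, cytosolic ribosome falls 1, mitochondrial ribosome rises 1, mitochondrial ribosome falls 0, oxidative phosphorylation rises 3 and oxidative phosphorylation falls 0. With total counts they were TGF-β and BMP falls 25, circadian rises 2, circadian falls 8, leukocyte falls 13, neural crest falls 11, skeletal muscle rises 2, cytosolic ribosome rises 2, cytosolic ribosome falls 11, mitochondrial ribosome falls 14, oxidative phosphorylation rises 12 and oxidative phosphorylation falls 8. With DESeq2 they were circadian rises 8, epicardium rises 8, neural crest rises 2, cytosolic ribosome rises 8, mitochondrial ribosome falls 5 and proteasome rises 1. With the 10-count filter they were neural crest rises 2. With 1 library left out the counts ranged over ion channels falls 7 to 12, AVC factors rises 9 to 14, collagens falls 5 to 10, matrix glycoproteins falls 8 to 18, early response falls 4 to 9, circadian rises 2 to 8, circadian falls 2 to 5, epicardium rises 5 to 8, liver falls 0 to 1, erythroid rises 3 to 7, erythroid falls 3 to 4, leukocyte falls 4 to 7, retina rises 3 to 5, retina falls 11 to 19, neural crest rises 1 to 2, skeletal muscle rises 2 to 5, epithelium falls 6 to 14, cartilage falls 3 to 7, cytosolic ribosome rises 1 to 8, cytosolic ribosome falls 1 to 21, mitochondrial ribosome falls 2 to 6, oxidative phosphorylation rises 11 to 44, oxidative phosphorylation falls 0 to 2, proteasome rises 0 to 5, proteasome falls 0 to 1. The circadian clock list, with 5 of 43 members higher and 4 lower, moved with most of these settings.

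The difference between the fractions (1897 genes, 573 above and 1324 below) was 3836 with DESeq2 (1340 and 2496), 1186 with total counts (179 above), 2037 with DESeq2 size factors and 2028 with the replicate block. With each pair of fractions as a block, added after the data were seen, it was 2572 (1036 above). Leaving out 1 library gave 967 to 3564 genes, 286 to 1461 above and 664 to 2103 below. Depth limited the genes at a few counts, whose folds are given as ratios with counting intervals. In the simulation only 200 of 21744 genes were changed, whereas 36.8% of genes passed in the data, so its padj cut-off was stricter. Its recovery of 9.0% for log2 changes of 1 is therefore not the share recovered here. With 3 libraries a stage, a member that did not pass may still have changed.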
